A study of Mus musculus with 2 samples.

Results

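Granzymes, perforin and Nkg7 are the effector genes of cytotoxic lymphocytes, and 10 of them were followed by symbol in the count matrices, out of 32285 genes listed: the granzymes Gzma, Gzmb, Gzmc, Gzmd, Gzme, Gzmf, Gzmg and Gzmk, the pore former Prf1 (perforin) and the granule membrane gene Nkg7. All 10 symbols were found in both libraries. The leukocytes came from tumors of MC38, a mouse colon adenocarcinoma line, implanted subcutaneously in C57BL/6J females aged 6 to 8 weeks. One group of mice received a ketogenic diet, low in carbohydrate and rich in fat, from day 4 on, and the other stayed on a normal diet; both carried the tumor and were sampled at day 14. Dead cells were depleted, CD45-positive leukocytes were enriched with magnetic beads, and droplet single-cell libraries were built with the Chromium 3′ kit, version 3.1. Each diet was represented by 1 library made from 5 pooled mice, and no barcode carries a mark of its mouse. Differences between the diets therefore have no replicate check and were not tested: each is given with a 95% interval that covers counting error only.

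Cytotoxic lymphocytes store granzymes, a family of serine proteases, together with perforin in secretory granules. On contact with a target cell the granules fuse with the plasma membrane, perforin opens the target's membranes, and granzymes enter and cut proteins that keep the cell alive. Natural killer (NK) cells and CD8 T cells are the main users of this pathway, and the granzymes of the mouse differ in what they cut and in which lymphocytes carry them.

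Barcodes with at least 500 unique molecular identifiers (UMIs, 1 per captured RNA molecule) and 300 genes numbered 5944 in the ketogenic and 5671 in the normal diet library, with medians of 3922 and 4200 UMIs. The matrices summed to 42710007 and 37575996 UMIs. Of these barcodes, 5873 and 5608 had at most 10% mitochondrial UMIs, and were sorted by marker genes that exclude the 10 genes. The leukocyte marker Ptprc, which encodes CD45, had a UMI in 86.1% and 88.6% of them. Of these, 1067 and 1052 barcodes carried enough markers of more than 1 lineage to be set aside as mixed. That call needed at least 3 lymphocyte marker UMIs, whereas the NK and CD3 gates needed 2. Barcodes short of it could stay in an NK or T class with markers of another lineage. Myeloid marker UMIs remained in NK-gated and CD8 T-gated cells of both libraries, as given below. A further 494 and 393 barcodes met no gate, and the rest fell into 16 classes. Across the libraries, 7 barcode sequences were shared. Barcodes of at most 100 UMIs, which hold mostly RNA free in the suspension, carried 6.09% of all UMIs in the ketogenic and 4.33% in the normal diet library.

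Summed over all barcodes that met the depth minimum, Gzmc was the most abundant of the 10 genes, with 277412 UMIs in the ketogenic and 178064 in the normal diet library. Nkg7 had 61039 and 40475 UMIs, Gzma 60809 and 35626, and Gzmb 59554 and 49270, so that Gzmb was below Nkg7 and Gzma in the ketogenic and above both in the normal diet library. These are counts of molecule ends at the 3′ side, so a longer transcript does not collect more of them. Gzmf gave 36399 and 30077 UMIs, Gzmd 27248 and 20847, Prf1 15912 and 13149, Gzme 12463 and 8489, and Gzmg 6053 and 6609. Gzmk was the rarest, with 385 UMIs in the ketogenic and 246 in the normal diet library.

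Of the 10 genes, 6 lie side by side. In GRCm38, Gzme, Gzmd, Gzmg, Gzmf, Gzmc and Gzmb occupy chr14:56117626-56262260, a stretch of 144.6 kb on the minus strand that holds 7 protein-coding genes, the remaining one being Gzmn. Each has 5 exons. Gzma (chr13:113093825-113100981) and Gzmk (chr13:113171608-113225908) are neighbors on chromosome 13, Prf1 is at chr10:61297833-61304680 with 3 exons, and Nkg7 is at chr7:43437073-43438249 with 4. Within the chromosome 14 cluster the coding sequences of Gzmd and Gzme were 93.3% identical, those of Gzme and Gzmg 89.5%, those of Gzmf and Gzmg 86.8%, and those of Gzmb and Gzmc 75.9%. Gzma and Gzmk shared 56.0%.

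Because a 3′ library reads the end of a transcript, the likeness of these ends bears on how well the copies can be counted apart. Of 411 windows of 90 bases in the last 500 bases of Gzmd, 7 (1.70%) were also found in Gzme, and no such window was shared by any other pair of the 10 genes. How reads that match more than 1 gene were treated is not given in the sources used here, so the split between Gzmd and Gzme carries that uncertainty.

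The upstream DNA sets the cluster's Gzmc to Gzmg apart from Gzmb. Over the 250 bases before the start site, Gzmd and Gzme were 94.8% identical, Gzmf and Gzmg 82.4%, and Gzmc and Gzme 80.9%, whereas Gzmb and Gzmc shared 47.8%. A 100-base stretch shared by the genes from Gzmc to Gzmg is shown for its likeness, and Gzmb is shown for contrast. It was chosen after these genes had been seen together in single cells, to unlike degrees, and any link to that was not tested. All are on the minus strand of chromosome 14 and come from the RefSeq promoter table for GRCm38.p6, in which all 10 genes were matched. In the first 5 sequences capitals mark the octamer TGACGTCA or the bases aligned with it, and in Gzmb they mark TGTGGT. The stretches are chr14:56234675-56234774 for Gzmc, chr14:56132615-56132714 for Gzmd, chr14:56120648-56120747 for Gzme, chr14:56211450-56211549 for Gzmf, chr14:56159617-56159716 for Gzmg and chr14:56262335-56262434 for Gzmb.
Gzmc: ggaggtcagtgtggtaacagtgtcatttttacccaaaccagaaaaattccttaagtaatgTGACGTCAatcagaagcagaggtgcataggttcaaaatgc
Gzmd: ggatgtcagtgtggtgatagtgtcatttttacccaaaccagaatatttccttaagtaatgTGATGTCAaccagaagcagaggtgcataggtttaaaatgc
Gzme: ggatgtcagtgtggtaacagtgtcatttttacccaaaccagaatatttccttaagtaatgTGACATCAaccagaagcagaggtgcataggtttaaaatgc
Gzmf: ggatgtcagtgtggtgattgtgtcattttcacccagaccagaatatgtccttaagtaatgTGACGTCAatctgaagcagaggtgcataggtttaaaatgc
Gzmg: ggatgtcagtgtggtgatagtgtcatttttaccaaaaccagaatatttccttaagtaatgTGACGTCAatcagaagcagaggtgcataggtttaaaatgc
Gzmb: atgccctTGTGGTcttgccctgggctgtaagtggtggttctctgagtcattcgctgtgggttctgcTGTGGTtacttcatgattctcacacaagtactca

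Relative to the Gzmc stretch, 94% of bases were identical in Gzme, 93% in Gzmg, 92% in Gzmd and 89% in Gzmf. Counted from 1 at the octamer's 5′ end, Gzmd differs by C4T and Gzme by G5A. The 250 bases before each listed start site, called the promoter here, were searched on both strands. The intact octamer TGACGTCA, the palindrome known as the cyclic AMP response element, was present in the promoters of Gzmc, Gzmf and Gzmg. It was present in 508 of 32851 promoters overall (1.55%). The hexamer TGTGGT, searched on both strands as the letters bound by Runx factors, was present in 9 of the 10 promoters, all but that of Gzmk. It was present in 14.0% of all promoters, and the 2 motifs share no base in these stretches. Gzmc to Gzmg, among the 9, have like upstream DNA, so the 9 are not independent. For Gzmk the listed start site lies 44943 bases from the 5′ end of the gene span given above. A match describes letters in the DNA and is not evidence of binding.

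NK cells carried most of the granzyme RNA that could be placed in a single class. The NK gate required at least 2 UMIs over 7 receptor genes (Ncr1, Klrb1c, Klra4, Klra7, Klra8, Klra9 and Klri2) and at most 1 CD3 UMI. It held 1577 cells (26.9% of cells) in the ketogenic and 931 (16.6%) in the normal diet library, with median depths of 3871 and 4732 UMIs. The 10 genes together made up 3.01% of the UMIs of NK-gated cells in the ketogenic and 2.98% in the normal diet library. NK-gated cells supplied 53.1% and 49.1% of all UMIs of the 10 genes, and the mixed barcodes set aside supplied another 27.7% and 32.6%. Levels of a gene in a class are given below as CPM, its UMIs divided by all UMIs of the class and scaled to 1000000.

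Gzmc, a mouse granzyme that kills without activating caspases, led NK-gated cells with 16785 CPM in the ketogenic and 15788 in the normal diet library. Gzma, a tryptase that cuts after basic residues, stood at 3544 and 3218 CPM. Gzmb, which cuts after aspartate and starts the caspase cascade, stood at 2572 and 3125. Gzmc was thus the highest on both diets, and on the normal diet Gzma (3174 to 3262) and Gzmb (3082 to 3169) had intervals that lay close to each other without overlapping. Nkg7, a membrane protein of the granules that is needed for their release, had 2036 and 1993 CPM, and Prf1 had 763 and 883. Among the remaining cluster genes, for which less is known, Gzmd had 1824 and 1821 CPM, Gzmf 1373 and 1652, Gzme 813 and 725, and Gzmg 431 and 581. Gzmk, a further tryptase, was near zero, with 16 UMIs in all NK-gated cells of the ketogenic and 7 in those of the normal diet library.

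CD8 T cells used a different mixture of the same genes. The CD8 T gate required CD3 and at least 2 UMIs of Cd8a or Cd8b1 with at most 1 NK receptor UMI, and held 274 cells in the ketogenic and 257 in the normal diet library, with median depths of 4022 and 4086 UMIs. The 10 genes made up 1.20% and 1.24% of their UMIs. Nkg7 was the most abundant, with 4050.0 and 4159.6 CPM, followed by Gzmf with 3525 and 3168 and by Gzmb with 1992 and 2703. Gzmc, which led in NK-gated cells, had 915 CPM in CD8 T-gated cells of the ketogenic and 778 in those of the normal diet library. Prf1 had 568 and 787, Gzmd 344 and 227, Gzme 335 and 153, and Gzma 219.5 (195 to 246) and 119.9 (101 to 141). Gzmk had 63.1 and 64.4 CPM, from 84 and 79 UMIs, and CD8 T-gated cells supplied 21.8% and 32.1% of all its UMIs, against 4.2% and 2.8% from NK-gated cells.

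Set side by side within each library, 7 of the 10 genes (Gzma, Gzmb, Gzmc, Gzmd, Gzme, Gzmg and Prf1) were at a higher level in NK-gated than in CD8 T-gated cells on both diets. Nkg7, Gzmf and Gzmk were lower in NK-gated than in CD8 T-gated cells on both diets. Gzmb stood at 2572 CPM in NK-gated and 1992 in CD8 T-gated cells of the ketogenic library and at 3125 and 2703 in those of the normal diet library, whereas Gzma stood at 3544 and 219.5 on the ketogenic and 3218 and 119.9 on the normal diet.

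**Figure D1:**
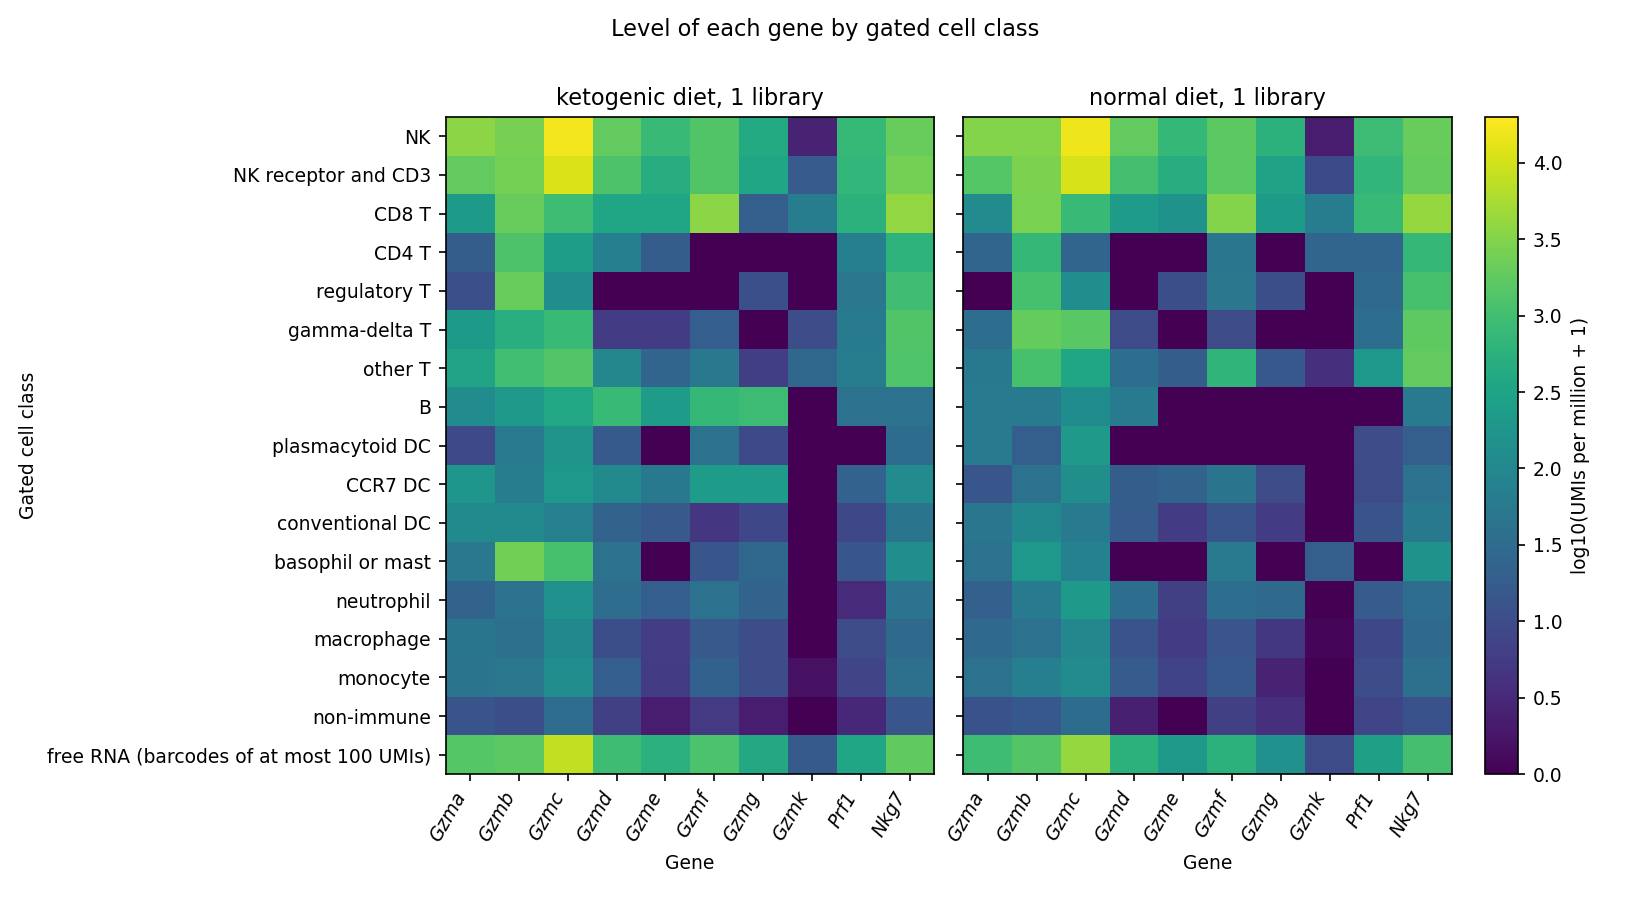
Level of each gene, as log10 of CPM plus 1, in 16 gated classes and in barcodes of at most 100 UMIs (bottom row), for the ketogenic diet library (left) and the normal diet library (right). Among the classes the brightest rows are NK, NK receptor and CD3, and CD8 T, with Gzmb and Nkg7 extending down the T cell rows, Gzmb bright in ketogenic basophils or mast cells and Gzmk faint throughout, and the bottom row is brighter than CD8 T for Gzmc, Gzma and Gzmd.

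Cells with both NK receptor and CD3 UMIs, which may be NK-like T cells or NK and T cells in 1 droplet, resembled neither class fully. They numbered 352 in the ketogenic and 186 in the normal diet library and were deeper, with medians of 6775 and 7554 UMIs. Their Gzmc level was 11861 and 11109.6 CPM, their Gzmb level 2475 and 2791, their Nkg7 level 2521 and 1948, and their Gzma level 1874 and 1486. Gzmk had 48 and 15 UMIs there. The whole class supplied 12.4% and 10.1% of all UMIs of the 10 genes.

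Regulatory T cells, the Foxp3-positive cells that restrain other lymphocytes, carried Gzmb with little perforin. The gate held 26 cells in the ketogenic and 24 in the normal diet library, with median depths of 2186 and 1953 UMIs. Gzmb had 197 and 112 UMIs there, or 1977 (1711 to 2274) and 1109 (913 to 1334) CPM, and Nkg7 had 97 and 112 UMIs. Prf1 had 5 and 3 UMIs, and Gzmd and Gzmk had 0 in both libraries, which allows up to 30.1 and 29.7 CPM by a limit of 3 UMIs. After thinning each cell to 1000 UMIs, Gzmb was detected in 57.7% (36.9 to 76.6) of these cells in the ketogenic and 47.8% (26.8 to 69.4) in the normal diet library. The highest single cell held 26.9% and 21.4% of the Gzmb UMIs.

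Gamma-delta T cells, gated by CD3 with receptor genes such as Trdc, numbered 77 in the ketogenic and 33 in the normal diet library, with median depths of 2212 and 2600 UMIs. Their Gzmb level was 488 (399 to 590) CPM in the ketogenic and 1887 (1644 to 2156) in the normal diet library, where 1 cell held 35.9% of the UMIs. Gzmb was detected after thinning in 25.0% (15.8 to 36.3) and 63.3% (43.9 to 80.1) of these cells. Nkg7 was detected in 38.2% (27.2 to 50.0) and 66.7% (47.2 to 82.7), and its level was 1333 and 1731 CPM. Both shares, read in the same cells, were lower in the ketogenic library. The counting intervals did not overlap for Gzmb and overlapped slightly for Nkg7, and with 1 library per diet the difference was not tested. Il17a was among the leading genes of the class, and the gate mixes cells of more than 1 kind.

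T cells that met no finer gate numbered 119 in the ketogenic and 99 in the normal diet library. Nkg7 had 1307 and 1876 CPM in them and Gzmb 1002 and 1125. Gzmf had 19 UMIs in the ketogenic and 222 in the normal diet library, and Gzmc had 524 and 116, of which 1 cell held 41.2% and 30.2%. CD4 T cells without Foxp3, the helper cells, numbered only 24 and 16. They gave 73 and 30 Gzmb UMIs and 34 and 30 Nkg7 UMIs, with at most 4 UMIs of Prf1 in either library.

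Outside the lymphocytes, the gate for basophils or mast cells showed Gzmb with almost no perforin in the ketogenic diet library. It held 41 and 20 cells, with 191 Gzmb UMIs (2469.7 CPM, 2132 to 2846) in the ketogenic and 10 (194 CPM, 92.8 to 356) in the normal diet library. Of these UMIs, 190 lay in 12 of 31 cells with the basophil protease gene Mcpt8 in the ketogenic library, the highest cell holding 43, and 8 lay in 3 of 11 such cells in the normal diet library. Prf1 had 1 UMI in the class in the ketogenic and 0 in the normal diet library, where 0 allows up to 58.1 CPM. Gzmc had 85 and 4 UMIs, of which 55 came from 1 ketogenic cell. In B cells of the ketogenic library, 1 cell held all 20 Gzmd UMIs, so that class level rests on a single barcode.

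Macrophages, monocytes and neutrophils should lack these genes and served as the background. Their gates leave out barcodes with at least 2 NK receptor or 2 CD3 UMIs, so this background holds for barcodes with few lymphocyte markers. Together they held 1650 and 2410 cells, with Gzmc at 121 and 110 CPM, Gzmb at 45.9 and 54.1, Nkg7 at 35.2 and 33.2, and Prf1 at 7.11 and 8.77. These levels were 1.06% to 2.98% of the level in barcodes of at most 100 UMIs in the ketogenic and 1.19% to 3.79% in the normal diet library, depending on the gene. The mixture was not quite that of free RNA. For every 100 Gzmc UMIs the myeloid cells held 37.9 and 48.9 Gzmb UMIs, the low barcodes 20.1 and 34.6, NK-gated cells 15.3 and 19.8, and CD8 T-gated cells 218 and 347.

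The genes differed in how widely they were spread over cells. After thinning to 1000 UMIs, which left out 47 and 26 of the NK-gated cells, Nkg7 was detected in 87.1% (85.3 to 88.7) of NK-gated cells in the ketogenic and 84.5% (82.0 to 86.8) in the normal diet library. Without thinning its shares were 96.8% and 96.0%. In macrophages, whose median depths of 3912 and 3994 UMIs were close to those of NK-gated cells, Nkg7 was detected after thinning in 3.27% and 2.88%. Gzmb was detected in 70.7% and 72.04% of NK-gated cells, against 1.64% and 3.65% of macrophages, and Gzma in 70.2% and 65.6%, against 1.64% and 1.83%. Gzmc, the gene most abundant in free RNA, was detected in 64.4% and 66.7% of NK-gated cells, against 12.4% and 6.92% of macrophages. Prf1 was detected in 49.0% and 49.1% of NK-gated cells and 0.935% and 0.576% of macrophages.

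Gzmd, Gzme, Gzmf and Gzmg, the other genes of the chromosome 14 cluster, were found in fewer cells. Gzmd was detected in 17.8% (15.96 to 19.9) of NK-gated cells in the ketogenic and 20.3% (17.8 to 23.1) in the normal diet library, Gzme in 14.8% and 14.8%, Gzmf in 7.58% and 6.52%, and Gzmg in 4.44% and 4.53%. Macrophages gave at most 1.17% for each of these genes in either library. A few cells therefore set the class level: the 10% of NK-gated cells with the most Gzmf UMIs held 99.6% and 99.8% of them, and for Gzmd the figure was 92.1% and 89.0%. For Gzmg, 1 cell held 19.1% of the UMIs of the class in the ketogenic and 16.6% in the normal diet library. Nkg7 was the most even, with 25.4% and 28.4% of UMIs in the top 10% of cells.

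In CD8 T-gated cells Nkg7 was again nearly universal after thinning, at 93.8% (90.2 to 96.3) in the ketogenic and 93.0% (89.1 to 95.8) in the normal diet library. Gzmb was detected in 56.2% (50.1 to 62.2) and 64.8% (58.7 to 70.7), and Prf1 in 30.9% (25.4 to 36.7) and 42.6% (36.4 to 48.9). Gzmf was detected in 30.9% and 25.8%, about 4 times its share of NK-gated cells. Gzma was detected in 8.46% and 5.47%, and Gzmg in 1.10% and 1.17%, from 3 cells in each library. Macrophages gave 1.17% and 0.384% for Gzmg. On the normal diet the intervals also overlapped (0.242 to 3.39 against 0.105 to 0.981), so that neither Gzmg share stands clear of background. For Gzmk the shares were 5.15% and 8.20% of CD8 T-gated cells, against 0 of 428 and 0 of 1041 macrophages, which allows shares of up to 0.701% and 0.288% by a limit of 3 cells.

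The granzyme with the most UMIs in a cell was scored in cells with at least 5 granzyme UMIs after thinning. Of 1331 such NK-gated cells in the ketogenic and 771 in the normal diet library, Gzmc led in 51.8% (49.0 to 54.5) and 56.7% (53.1 to 60.2). Gzma led in 37.9% (35.3 to 40.5) and 29.1% (25.9 to 32.4), and Gzmb in 6.31% (5.06 to 7.75) and 8.04% (6.22 to 10.2). The order Gzmc, Gzma, Gzmb was the same in both libraries, with a larger Gzma-led share on the ketogenic diet. Of 272 and 256 thinned CD8 T-gated cells, only 89 and 102 had enough granzyme UMIs to be scored. Among those scored, Gzmf led in 55.1% (44.1 to 65.6) and 42.2% (32.4 to 52.3), and Gzmb in 23.6% (15.2 to 33.8) and 50.0% (39.9 to 60.1). The intervals of the diets did not overlap for the Gzmb-led share of CD8 T-gated cells and overlapped for the Gzmf-led share. Regulatory T cells that could be scored were led by Gzmb in 7 of 7 and 2 of 2 cells.

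**Figure D2:**
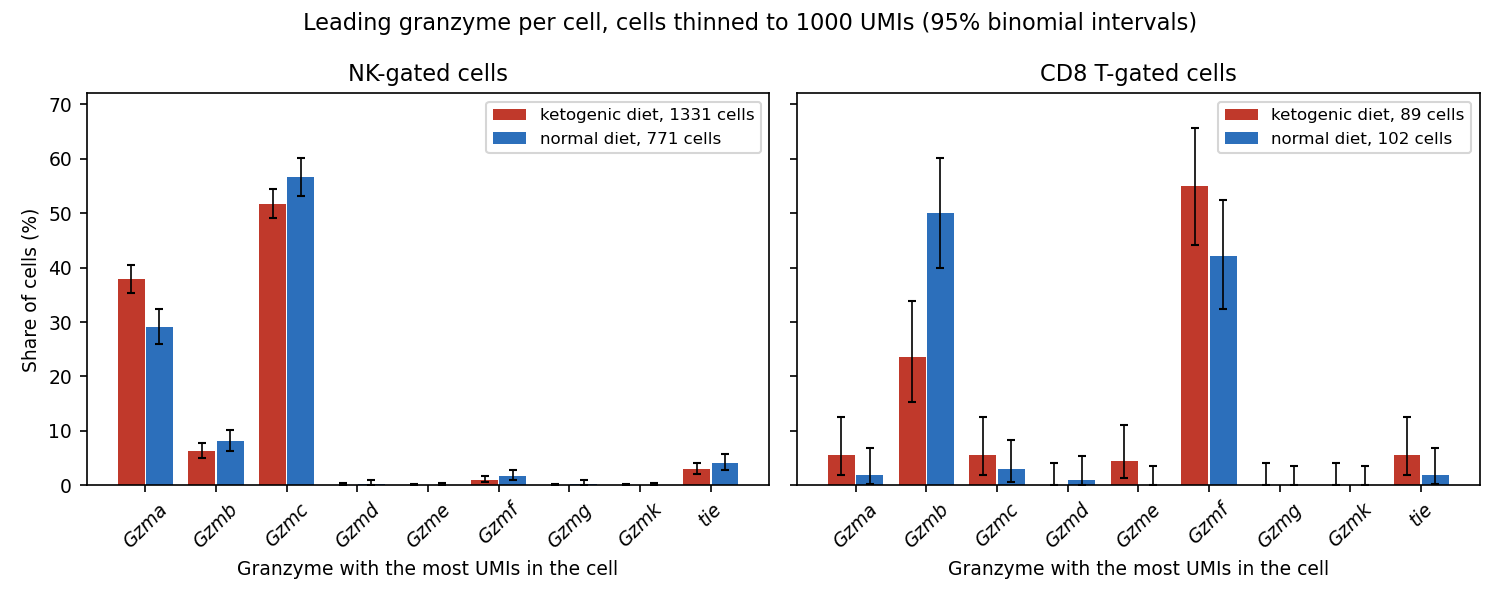
Share of cells (in percent) in which each granzyme had the most UMIs, among NK-gated (left) and CD8 T-gated cells (right) with at least 5 granzyme UMIs after thinning to 1000 UMIs; red bars are the ketogenic and blue bars the normal diet library, with 95% binomial intervals. Gzmc and Gzma led most of the scored NK-gated cells, and Gzmf and Gzmb most of the scored CD8 T-gated cells.

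Across single NK-gated cells the order of the pairs was much alike in both libraries, with Gzma and Gzmc at opposite ends. Correlations were taken over 1577 and 931 cells on the log of 1 plus UMIs per 10000; cells share their library and differ in depth, and the values are descriptions. Gzmd and Gzme, the most alike in sequence, had the highest Pearson r, 0.89 in the ketogenic and 0.89 in the normal diet library. Gzmg followed Gzmd (0.58 and 0.58) and Gzme (0.58 and 0.60), and Gzmc followed Gzmd (0.52 and 0.51). Gzma instead followed Nkg7 (0.50 and 0.47) and Gzmb (0.36 and 0.41), and Gzmb followed Prf1 (0.39 and 0.45). Prf1 lay between, with r of 0.26 and 0.32 with Nkg7, 0.18 and 0.26 with Gzma, 0.29 and 0.29 with Gzmd and 0.24 and 0.23 with Gzmc. Gzma and Gzmc, the leading granzymes of these cells, had the lowest r, −0.40 and −0.35, and Gzmb and Gzmc were nearly unrelated (0.06 and 0.12).

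**Figure D3:**
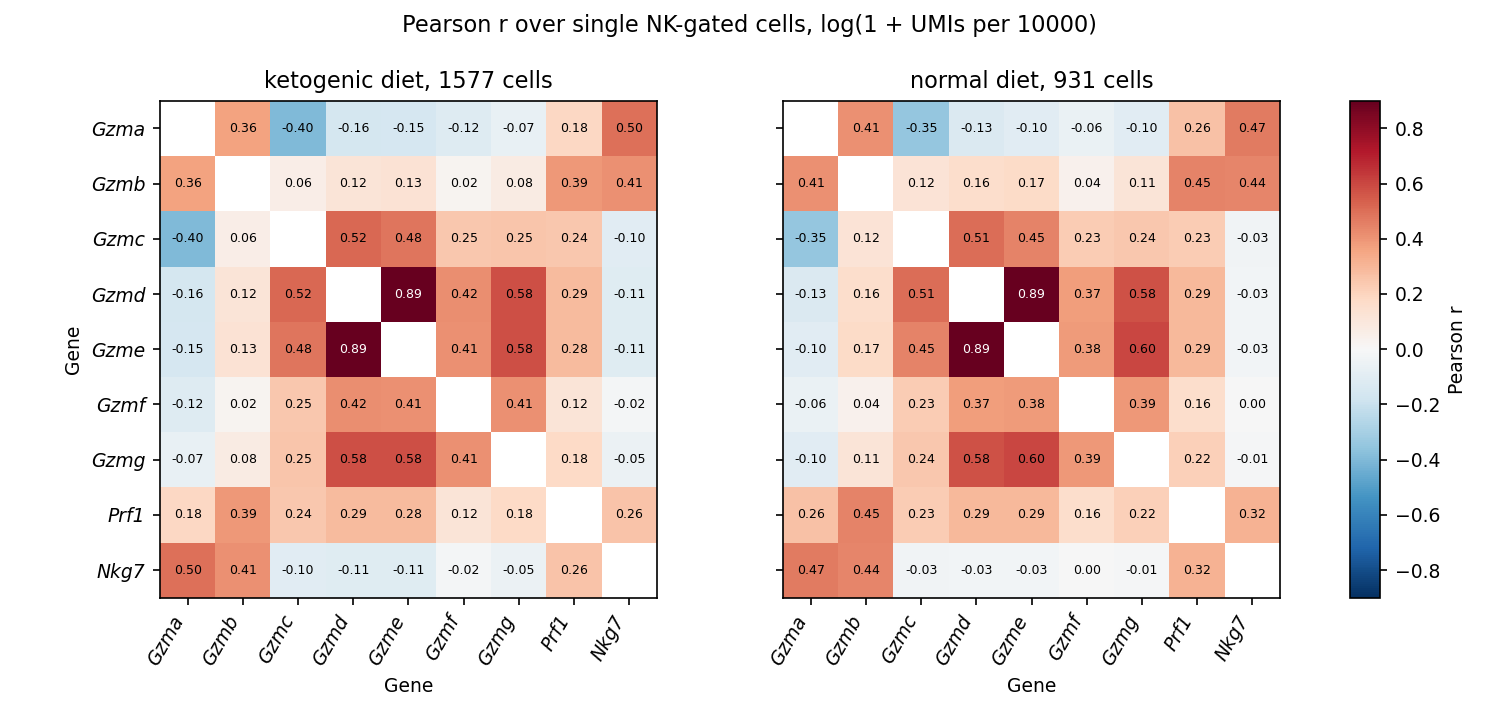
Pearson r between genes over single NK-gated cells, for 1577 cells of the ketogenic (left) and 931 cells of the normal diet library (right), on log(1 + UMIs per 10000); Gzmk is left out for its 16 and 7 UMIs. Red cells join Gzmc, Gzmd, Gzme, Gzmf and Gzmg with each other and Gzma, Gzmb and Nkg7 with each other, Prf1 is pale red with all, and the bluest cell lies where Gzma meets Gzmc, with fainter blue where Gzma meets Gzmd and Gzme.

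Joint detection after thinning gave these relations as counts of cells. Gzme was detected in 65.9% (59.98 to 71.5) of NK-gated cells with a Gzmd UMI in the ketogenic and 62.5% (55.1 to 69.5) in the normal diet library, against 3.74% and 2.64% of those without. Gzmg was detected in 19.8% and 21.7% of cells with Gzmd, against 1.11% and 0.139% of those without. Gzmf was detected in 23.4% and 21.2% of cells with Gzmd, against 4.14% and 2.77%. The ends of Gzmf and Gzmg share no 90-base window with that of Gzmd. For Gzma and Gzmc the relation ran the other way: Gzma was detected in 63.0% (59.95 to 66.1) and 60.1% (56.1 to 64.0) of cells with Gzmc, against 83.1% (79.7 to 86.2) and 76.7% (71.6 to 81.4) of those without. Prf1 was detected in 54.9% and 55.7% of cells with Gzmb, against 35.0% and 32.02% of those without.

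In CD8 T-gated cells Gzmd and Gzme were also the closest pair, with r of 0.82 over 274 cells of the ketogenic and 0.73 over 257 of the normal diet library. Gzmf followed Gzmc (0.54 and 0.48) and Gzmd (0.49 and 0.53). After thinning, Gzmf was detected in 20 of 27 (74.1%) and 15 of 19 (78.9%) CD8 T-gated cells with Gzmd, against 26.1% and 21.5% of those without. Gzma and Gzmc, which ran against each other in NK-gated cells, had r of −0.02 and −0.04.

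Other genes with the most similar pattern were found by Pearson r. Over 23 points (classes of each library with at least 30 cells, which share library and depth), Gzmb was most like Cst7 (r of 0.96), which encodes cystatin F, an inhibitor of the proteases that activate granzymes. Nkg7 was most like Sh2d2a (0.99), which encodes a T cell adaptor, and Prf1 most like Styk1 (0.97). Gzmc was most like Cd55 (0.96), Gzma most like the NK receptor gene Klrb1f (0.94), Gzme most like Fcrl6 (0.97) and Gzmk most like Themis (0.90), a gene of T cell development. Over the 2508 NK-gated cells, r was taken within each library and the mean of both was used. By this mean Gzma was most like the chemokine gene Ccl5 (0.50) and Gzmc most like Pglyrp1 (0.57). Gzmd was most like Spp1 (0.54), which encodes osteopontin, and Nkg7 most like Fcer1g (0.59). Gzmb and Prf1 had lower values, the highest being 0.35 with Irf8 and 0.36 with Tnfrsf9.

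NK-gated cells were split by markers of maturity (Itgam, S1pr5, Klrg1, Cma1 and Zeb2), of tissue NK cells (Itga1, Cd200r1, Cxcr6 and Tnfsf10) and of the cell cycle. Tissue-type cells, 346 in the ketogenic and 246 in the normal diet library, had the highest Gzmc of these subsets, 30965 and 25490.4 CPM. Mature-type cells, 347 and 232, had 12619.5 and 8831, cycling cells, 203 and 121, had 11886 and 14209.8, and cells with no subset marker, 619 and 294, had 11939 and 12875. Gzma ran in another order: it was at 6253 and 5762 CPM in cells with no subset marker, 5418 and 3723 in mature-type, 2677 and 2586 in tissue-type and 1578 and 1735 in cycling cells. The subset with the most Gzmc thus had less Gzma than the mature-type cells in both libraries. Subsets were assigned by marker UMIs, so shallow cells more readily lack a subset marker. Over all NK-gated cells, Gzma was at 7014 and 6017 CPM with each cell given equal weight, against 3544 and 3218 with UMIs summed. The part of depth in the Gzma order was not tested. Gzmf was at 3199 and 3292 CPM in tissue-type cells and at 364 and 1029 in cycling cells, where 1 cell held 23.9% and 45.6% of its UMIs. Nkg7 was lowest in cycling cells, at 818 and 1121 CPM.

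The difference between diets in Gzmb was not alike in these subsets. Gzmb was at 1188 CPM in cycling NK-gated cells of the ketogenic and 2325 in those of the normal diet library, a log2 ratio of −0.97 (−1.03 to −0.90). In tissue-type cells it was at 2792 and 3663 (log2 ratio −0.39, −0.44 to −0.34), and in cells with no subset marker at 4057 and 4383 (−0.11, −0.16 to −0.06). In mature-type cells it was at 3235 and 2696, a log2 ratio of 0.26 (0.21 to 0.32). Prf1 had a log2 ratio of 0.41 (0.30 to 0.52) in mature-type cells and −0.44 (−0.53 to −0.35) in tissue-type cells. Differences between subsets were not tested.

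Cycling CD8 T-gated cells, chosen by the same cycle genes, numbered 47 in the ketogenic and 46 in the normal diet library. Gzmf was at 3892 and 2509.8 CPM in them, Nkg7 at 3041 and 3126, Gzmb at 1832 and 1697, and Prf1 at 596 and 572. Gzmc was at 1602 CPM in cycling CD8 T-gated cells of the ketogenic and 434 in those of the normal diet library, with 29.8% and 32.4% in 1 cell.

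**Figure D4:**
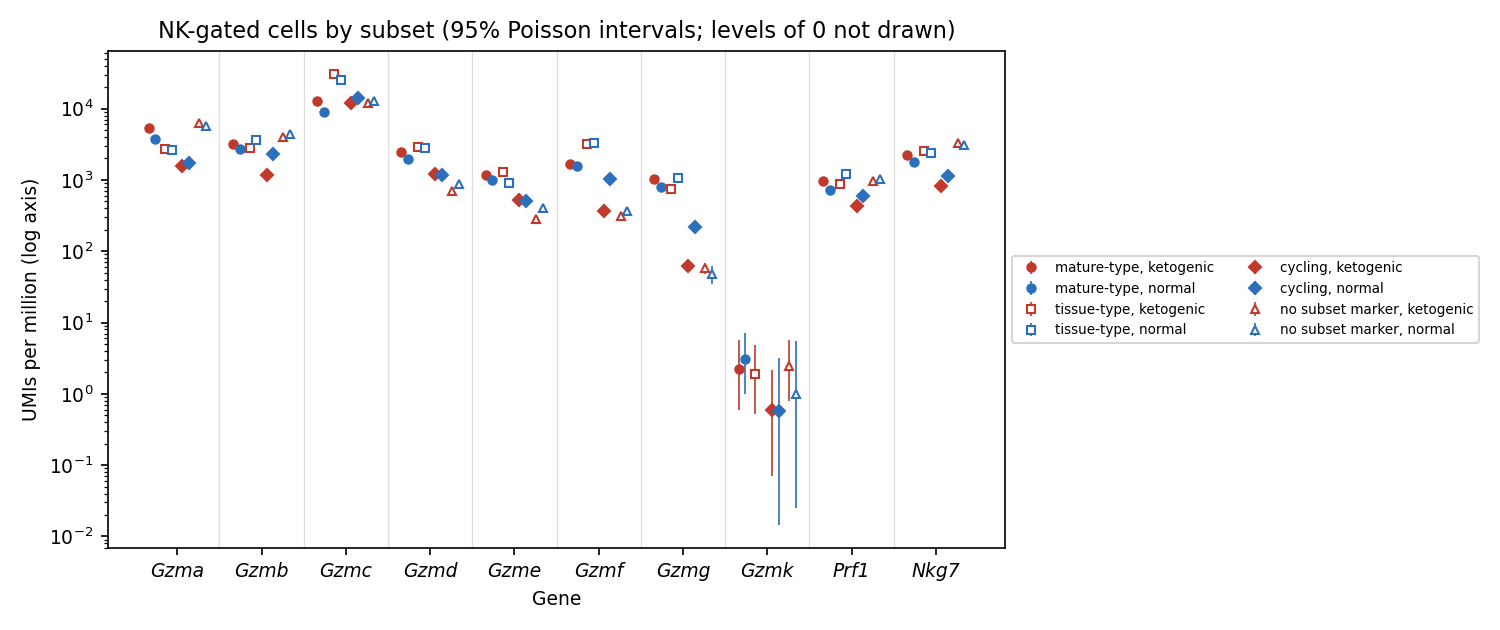
Levels on a log axis (CPM) of each gene in subsets of NK-gated cells, with 95% Poisson intervals; red is the ketogenic and blue the normal diet library, and the marker shape gives the subset. Gzmc is highest in tissue-type cells, at 30965 and 25490.4 CPM, and Nkg7 is lowest in cycling cells, at 818 and 1121.

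Between the diets, the cytotoxic genes of NK-gated cells differed little. Gzmb was lower on the ketogenic diet, with a log2 ratio of −0.28 (−0.31 to −0.25), as were Gzmf at −0.27 (−0.30 to −0.23), Prf1 at −0.21 (−0.26 to −0.16) and Gzmg at −0.43 (−0.49 to −0.37). Gzma was higher at 0.14 (0.11 to 0.16), Gzme at 0.17 (0.11 to 0.22) and Gzmc at 0.09 (0.08 to 0.10). For Gzmd (0.00, −0.03 to 0.04) and Nkg7 (0.03, −0.0017 to 0.06) the interval included 0. Of the 9 genes with at least 50 UMIs over both libraries in NK-gated cells, 0 reached a ratio of 1.5 in either direction. Among all 10125 genes measured at this depth, 3.08% were at least that much higher on the ketogenic diet and 6.39% that much lower, shares at which a count of 0 among 9 is no result about these genes. The median log2 ratio of the 9 was 0.00, beside −0.07 over all genes measured.

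These NK differences depend on how cells are weighted. With each cell given equal weight the Gzmb log2 ratio was −0.15 and that of Gzmf was 0.04, against −0.28 and −0.27 with UMIs summed. With cells thinned to 1000 UMIs they were −0.14 and 0.11. Gzmg, the most different by summed UMIs at −0.43, stood at −0.08 with equal weight, −0.16 thinned and −0.16 with each subset given the same weight in both libraries. Other measures moved with the diets in the same cells. The 9 myeloid marker genes summed to 251 CPM in NK-gated cells of the ketogenic and 556 in those of the normal diet library. None of the 9 was at 0 in either. A free RNA share of 4.59% and 6.76% was estimated by counting every UMI of these and 4 B cell marker genes as free RNA. Mitochondrially encoded genes had a median log2 ratio of −0.62. The part of these in the Gzmb difference was not tested.

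In CD8 T-gated cells Gzmb had a log2 ratio of −0.44 (−0.51 to −0.37) and Prf1 of −0.47 (−0.61 to −0.33), both lower on the ketogenic diet. Nkg7 (−0.04, −0.09 to 0.02) and Gzmk (−0.03, −0.49 to 0.43) had intervals that included 0, and Gzmf (0.15, 0.09 to 0.22) and Gzmc (0.23, 0.11 to 0.36) were higher. Of the 10 genes, 3 were at least 1.5-fold higher on the ketogenic diet: Gzme at 1.13 (0.88 to 1.38), Gzma at 0.87 (0.58 to 1.17) and Gzmd at 0.60 (0.38 to 0.82). The share of all 5332 genes measured that were this much higher was 3.39%. The 1 gene that was 1.5-fold lower was Gzmg, with 25 UMIs in the ketogenic and 272 in the normal diet library (log2 ratio −3.56, −4.21 to −2.97), where the share of all genes was 9.77%. The median of the 10 log2 ratios was 0.06, beside −0.07 over all genes measured.

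The values of Gzmg, Gzme, Gzma and Gzmd in CD8 T-gated cells rested on few cells, whereas for Gzmb the highest cell held 5.89% and 5.07% of UMIs and for Prf1 5.56% and 4.25%. For Gzmg, 1 cell held 78.7% of the UMIs in the normal diet library, and without the highest cell of each library the log2 ratio was −1.80. The 10% of cells with the most UMIs held 97.3% and 100% of Gzme, 94.5% and 96.6% of Gzma and 96.1% and 96.0% of Gzmd. Klre1, an NK receptor gene that some CD8 T cells use, was a listed NK marker before it was left out of the main gate. With it in the NK gate, 164 and 147 CD8 T-gated cells remained. The log2 ratios were 0.33 for Gzme, 0.28 for Gzma and 0.48 for Gzmd. None of the 3 was then 1.5-fold higher. Without the highest cell of each library they were 1.29, 0.98 and 0.78, and with each cell given equal weight 0.86, 0.47 and 0.60. Macrophage genes summed to 39.8 CPM in CD8 T-gated cells of the ketogenic and 699 in those of the normal diet library. The myeloid sum was 163 and 1012, with none of its 9 genes at 0 in either. The part of these genes in the differences was not tested. Counting every UMI of the myeloid and B cell markers as free RNA gave an estimated share of 2.98% and 12.5%. That estimate is too high where such UMIs have another source. In macrophages, monocytes and neutrophils of the normal diet library, the 10 genes stood at 1.19% to 3.79% of their free RNA level. Those classes leave out barcodes with enough NK receptor or CD3 UMIs for a lymphocyte gate. This level therefore sets no bound on the free RNA share. With the estimated share subtracted, Gzmb stood at −0.52 and Prf1 at −0.58. Gzmc then stood at 1.21 in place of 0.23, past 1.5-fold, with levels of 692 and 299.6 CPM. Gzma moved to 5.73, since its normal diet level of 119.9 CPM is close to what the free RNA estimate removes.

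**Figure D5:**
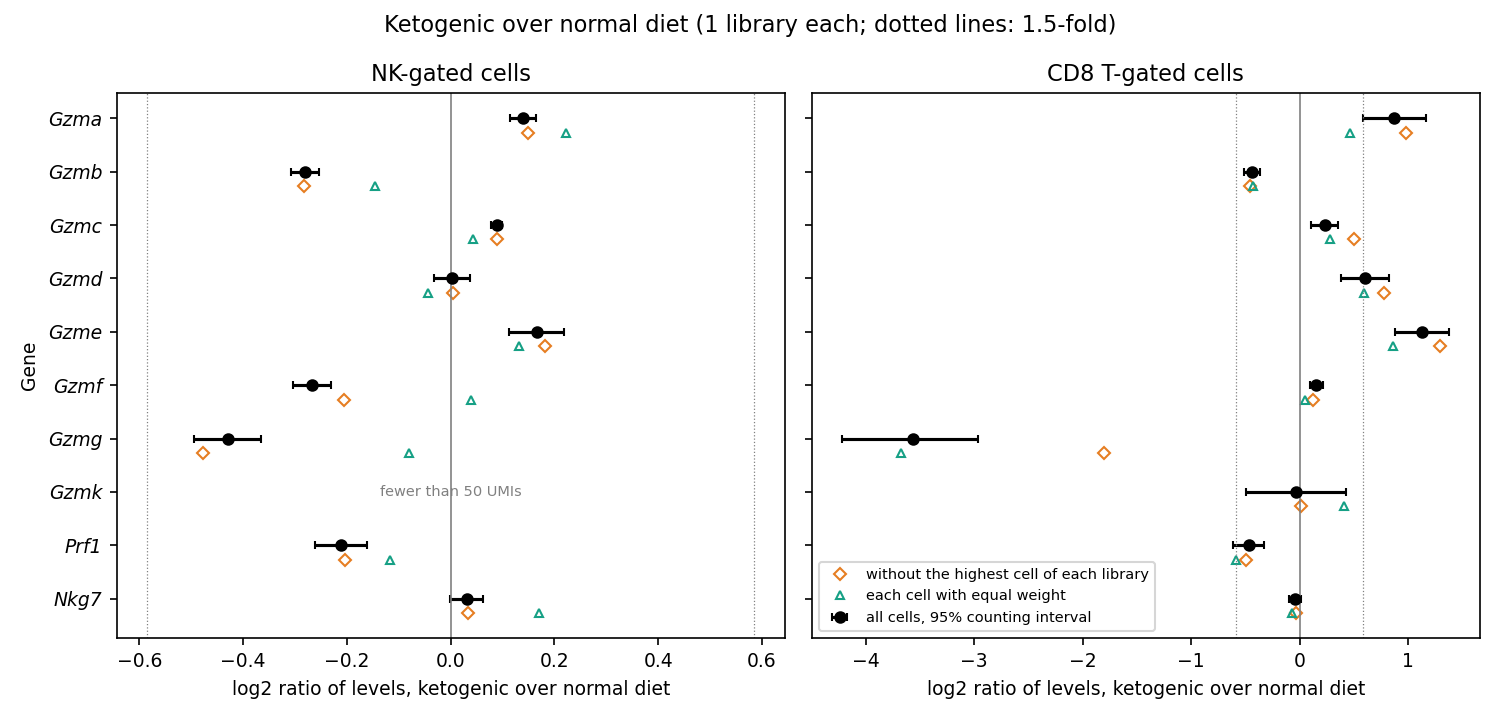
Log2 ratio of levels, ketogenic over normal diet, of each gene in NK-gated (left) and CD8 T-gated cells (right), with 95% counting intervals for all cells (black), without the highest cell of each library (orange diamonds) and with each cell given equal weight (green triangles); the panels have different scales and dotted lines mark 1.5-fold. In NK-gated cells all points lie inside the dotted lines, and in CD8 T-gated cells Gzmg moves most when 1 cell per library is left out.

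The rest of the granule pathway was followed through 43 genes, chosen by role with earlier results of these data known. In NK-gated cells 41 had at least 50 UMIs; 1 was 1.5-fold higher on the ketogenic diet, 2 were lower, and the median log2 ratio was −0.13. The shares of all genes measured were 3.08% and 6.39%, to which these counts are near. The higher one was Gzmm, the granzyme M gene, from 64 and 25 UMIs (6.53 and 3.97 CPM). The lower ones were Ctsh, which encodes the protease cathepsin H (11.1 and 28.6 CPM, log2 ratio −1.36), and Zeb2, a transcription factor of NK maturation (53.3 and 81.8, −0.62). Srgn, which encodes the proteoglycan that packs granzymes, had 1609 and 1439 CPM, and Ctsc, the protease that activates them, 83.1 and 116. Cst7 had 365 and 400.5, Ctsw 697 and 606, and the cytokine gene Ifng 94.03 and 131.

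In CD8 T-gated cells 40 of the 43 genes had at least 50 UMIs, 0 were 1.5-fold higher, 9 were lower and the median log2 ratio was −0.27. The shares of all genes measured were 3.39% higher and 9.77% lower. The lower ones included Cd63, a granule membrane protein (10.5 and 39.97 CPM), the fusion genes Stxbp2 (30.8 and 54.7), Snap23 (14.3 and 29.4) and Vamp7 (18.0 and 35.9), and the cathepsin genes Ctsh (19.5 and 46.5) and Ctsl (16.5 and 32.6). The regulators Prdm1 (18.0 and 28.6), Zeb2 (62.4 and 96.3) and Il2ra (36.1 and 54.7) complete the 9. Cd63, Ctsh and Ctsl are also genes of macrophages, whose markers were higher in the normal diet cells as given above. The part of that was not tested for these or for any other of the 9. Srgn had 1670.2 and 1406 CPM in CD8 T-gated cells, Ctsc 120.3 and 166, Cst7 415 and 432, Ctsw 720.1 and 681, and Ifng 521 and 571.

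Setting the median log2 ratio of all genes measured to 0 changed the balance of all genes but no call among the 10. In NK-gated cells 312 genes were 1.5-fold higher and 647 lower, so that 32.5% of those past the fold were higher, and 402 and 458 (46.7%) after the shift. In CD8 T-gated cells the counts were 181 and 521 (25.8%), and 253 and 382 (39.8%) after the shift. The log2 ratio of Gzmb was then −0.21 in NK-gated and −0.37 in CD8 T-gated cells.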

How the data were processed

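The authors deposited unfiltered matrices of UMI counts. They were made with Cell Ranger, which is version 4 per the file headers and 6.0.0 per the submitters' processing notes. The same notes list 2 build names, GRCm38 and mm10, and Seurat 3.2.0. The annotation release and the treatment of introns and multiply mapped reads are not given in the sources used here.

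Analysis used Biopython 1.88, matplotlib 3.10.9, pandas 2.3.3, scipy 1.17.1 and numpy 2.4.6 under Python 3.11.15. Barcodes needed 500 UMIs, 300 genes and at most 10% mitochondrial UMIs. Marker gates (minimums of 1 to 3 UMIs, with 400 to 3000 CPM for classes other than NK and T cells) had thresholds set after the cells were seen. Klre1 was left out of the NK gate after its level in CD8 T cells was seen. Cycling cells had at least 1000 CPM of cycle genes, and other NK subsets went to the marker list with more UMIs; a further split of CD8 T cells is not reported here. No doublet caller was run. Mixed barcodes were set aside by markers, from at least 3 lymphocyte marker UMIs. NK and T classes may therefore still hold barcodes with markers of more than 1 lineage. Levels are CPM (UMIs scaled by the class total), with exact Poisson intervals; shares have exact binomial (Clopper-Pearson) and ratios exact conditional intervals, at 95%, for counting error only. PCR copies are collapsed by UMI. Genes with 50 UMIs over both libraries in a class were measured for 1.5-fold differences. With 1 library per diet, no p-value was computed. The interval and call steps were run on counts drawn from a Poisson model, which the intervals assume. Those counts lack the clumping of UMIs in few cells. Positions are from GENCODE vM21.

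The text names all 10 genes, those of the 43 pathway genes past 1.5-fold with Srgn, Ctsc, Cst7, Ctsw and Ifng, and genes of like pattern among the 3 highest correlations per gene (log2 of CPM plus 10, genes with 500 UMIs). The genes and lists were chosen with earlier results of these data known. Alternatives covered gates, mixed barcodes, mitochondrial and depth limits, scaling, cell weights, free RNA, thinning, pseudocounts, filters and subset weights.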

Additional observations from a re-analysis of the deposited data

Results flagged for a closer look

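Gzmf had a log2 ratio, ketogenic over normal diet, of −0.27 in NK-gated cells and of 0.15 in CD8 T-gated cells, opposite directions in the 2 classes. With 1 library per diet, the difference between the classes was not tested. The NK value was 0.039 with each cell given equal weight and 0.11 with cells thinned to 1000 UMIs, and the CD8 T value was −0.17 with Klre1 in the NK gate.

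Barcodes of at most 100 UMIs, which the comparisons between classes do not use as cells, held Gzmc at 8165 CPM in the ketogenic and 4126 in the normal diet library, above the 121 and 110 of macrophages, monocytes and neutrophils together. Gzme stood there at 559 and 212, and Gzmg at 393 and 147.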

How the results depend on the processing

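No paired analysis was possible because each diet has 1 library and the labels give no replicate numbers. Gzmb in NK-gated cells (−0.28) was negative in all 17 alternatives run, at −0.33 with every gate minimum raised by 1, −0.23 with mixed barcodes kept, −0.21 with the median gene at 0, −0.15 with equal cell weights, −0.31 with free RNA subtracted and −0.14 with cells thinned. Gzmb in CD8 T-gated cells (−0.44) was negative in all 17, at −0.052 with mixed barcodes kept (476 and 510 cells), −0.37 with the median gene at 0, −0.52 with free RNA subtracted and −0.23 with Klre1 in the NK gate. The count of genes 1.5-fold higher in CD8 T-gated cells (3) was 5 with mixed barcodes (Gzmc and Gzmf added), 4 with free RNA subtracted (Gzmc added), 2 with equal cell weights or thinning (without Gzma) and with a pseudocount of 10 (without Gzmd), and 0 with Klre1, and the count lower (1) was 2 with Klre1, Gzmg and Prf1. Signs turned for Gzmf in NK-gated cells (0.039 with equal cell weights, 0.11 thinned), Gzmc in CD8 T-gated cells (−0.036 thinned) and Gzmf in CD8 T-gated cells (−0.17 with Klre1). Values near 0 also took both signs: Gzmd (−0.045 to 0.13) and Nkg7 (−0.031 to 0.19) in NK-gated cells, and Nkg7 (−0.15 to 0.15) and Gzmk (−0.16 to 0.53) in CD8 T-gated cells. Keeping mixed barcodes or adding Klre1 changes which cells are counted; the cause beyond that was not tested. The count of genes with a higher level in NK-gated than CD8 T-gated cells was 7 under each of the 17, and 7 also had a higher detection share, thinned or not. Klre1 was a listed NK marker, and it was left out of the main gate after its level in CD8 T cells was seen. Leaving out the highest cell was also chosen after seeing the data.

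All-gene counts at 1.5-fold, 312 higher and 647 lower in NK-gated and 181 and 521 in CD8 T-gated cells, moved by over 1.5 times in some settings. Thinning gave 151 and 356, and 74 and 99. A pseudocount of 10 CPM gave 41 and 88, and 78 and 273. A filter of 10 UMIs gave 854 and 1283, and 709 and 1696, and one of 200 gave 85 and 207, and 23 and 71. Equal cell weights gave 1060 lower in NK-gated cells. In CD8 T-gated cells, mixed barcodes gave 883 lower, free RNA subtraction 287 higher and Klre1 97 higher.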
